A study of Homo sapiens with 6 samples.

Results

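The MYC and MAX network is described here through 10 of its genes, chosen by name: MYCN, MYC, MYCL, MAX, MXI1, MXD3, MXD4, MGA, MNT and MLX. They are 10 of the 20037 protein-coding genes of the RefSeq GRCh38.p14 table. R-loops, in which an RNA strand pairs with one DNA strand and leaves the other free, were mapped by DRIP-seq: the antibody S9.6 pulls down restriction-digested DNA that carries such hybrids, and the DNA is then sonicated and sequenced. The cells were SH-SY5Y, a human neuroblastoma line, transduced with a lentiviral U6 vector that carries either shT2, in 3 samples, or shNC3, in 3 more. Puromycin selection is described for the knockdown cells, and an RNase H-treated pulldown, which removes the hybrids, as a negative control. The series concerns a stable knockdown of TDP-43, which binds RNA and DNA. The labels do not say which hairpin targets it. From the names, shT2 is taken as the knockdown and shNC3 as its control. Each arm is a single hairpin; cells were harvested for each replicate, but no label says that its samples were infected or cultured separately, so a p-value reflects how far these 6 samples vary and that variation may be technical. TARDBP, which encodes TDP-43, had 9702, 9573 and 7819 bp under peaks in shT2, against 11725, 10554 and 10239 bp in shNC3. By limma the log2 difference in covered length was -0.4 (SE 0.09), with an adjusted p of 0.00683. The peak lists used here give neither its RNA nor its protein level, so its peaks do not check the knockdown.

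In this network, MYC, MYCN and MYCL each pair with MAX through a basic helix-loop-helix zipper and bind the E-box CACGTG to activate genes of growth and ribosome production. MXI1, MXD3, MXD4 and MNT compete for MAX and recruit SIN3 and histone deacetylases to repress the same sites, MGA pairs with MAX inside a Polycomb complex, and MLX is a MAX-like partner of MXD4, MNT and the glucose-sensing factors MLXIP and MLXIPL. Amplified MYCN is the best known oncogene of neuroblastoma. SH-SY5Y is a line without that amplification and expresses MYC.

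The value used for a gene is the length of its span plus 2 kb on each side that lies under called peaks, in bp or as a percent of that window. It says how far peaks reach, not how strong the signal is, and it cannot tell more cells with an R-loop from more R-loop per cell. The shT2 lists held 49068, 50971 and 50821 peaks and the shNC3 lists 45390, 42717 and 45014. The pulldown depth recovered from the peak statistics was 3.08 to 3.46 fragments per base in shT2 and 1.65 to 1.79 in shNC3, so the shT2 libraries were deeper. Noradrenergic marker genes were called longer in shT2 in 4 of 9 tested cases and shorter in none, and all 9 had peaks in both groups. Among the 11060 tested genes covered in both groups, 22.8% were longer and 25.5% shorter. Among all 11771 tested protein-coding genes, these shares were 24.2% and 27.2%. The summed scaled coverage of the noradrenergic list was 97.6 to 106.0 kb in shT2 and 89.0 to 96.9 kb in shNC3, and TH had no peak in any sample. Mesenchymal marker genes were called shorter in 5 of 9 and longer in none, of which PRRX1, CD44 and YAP1 had peaks in shNC3 alone and so passed the filter for testing through that group only. Among the other 6, 2 were shorter, against 25.5% of the genes covered in both groups. The summed scaled coverage took in the whole list, PRRX1, CD44 and YAP1 included. It was 46.5 to 51.2 kb in shNC3, against 17.4 to 18.4 kb in shT2. The 2 shorter genes with peaks in both groups were COL1A1 (mean 14.3 kb in shNC3, 0.216 kb in shT2) and LGALS1 (8.65 kb in shNC3, 3.06 kb in shT2). FN1, VIM, NOTCH2 and TWIST1 were not called, so the sum is no measure of a loss across the list. SNAI2 had no peak in any sample. Peak coverage is not an RNA level, so these marker counts do not show the state of the cells. The part of depth and of cell state in the results below was not tested, apart from the equal-depth values given.

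Promoter sequences (RefSeq, build GRCh38.p14, 250 bases before to 50 after the annotated start) were at hand for 9 of the 10 genes, with 14 start sites in all. The 5 printed here carry the main contrasts among the promoters: those of MYCN and MYCL lay under no peak in any sample, and those of MXD4, MNT and MLX hold the E-box that the network itself binds, in capitals.
MYCN, chr2:15940300-15940599, plus strand: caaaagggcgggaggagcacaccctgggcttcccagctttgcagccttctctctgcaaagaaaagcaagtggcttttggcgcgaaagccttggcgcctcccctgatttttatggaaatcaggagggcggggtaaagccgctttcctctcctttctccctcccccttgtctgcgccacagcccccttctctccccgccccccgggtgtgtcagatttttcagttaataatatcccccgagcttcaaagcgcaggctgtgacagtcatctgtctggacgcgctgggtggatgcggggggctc
MYCL, chr1:39901868-39902167, minus strand: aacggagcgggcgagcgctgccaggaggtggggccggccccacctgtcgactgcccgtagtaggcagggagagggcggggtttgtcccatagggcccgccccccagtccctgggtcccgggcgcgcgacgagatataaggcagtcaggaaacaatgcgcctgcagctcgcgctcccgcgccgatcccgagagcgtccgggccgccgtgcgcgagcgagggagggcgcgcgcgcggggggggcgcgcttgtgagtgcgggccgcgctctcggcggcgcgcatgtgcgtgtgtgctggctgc
MXD4, chr4:2262060-2262359, minus strand: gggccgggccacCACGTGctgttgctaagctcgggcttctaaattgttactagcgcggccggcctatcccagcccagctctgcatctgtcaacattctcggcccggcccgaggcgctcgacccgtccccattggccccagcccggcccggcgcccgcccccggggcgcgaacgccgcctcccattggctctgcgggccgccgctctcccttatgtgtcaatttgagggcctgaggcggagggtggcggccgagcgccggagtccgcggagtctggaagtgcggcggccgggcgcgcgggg
MNT, chr17:2401011-2401310, minus strand: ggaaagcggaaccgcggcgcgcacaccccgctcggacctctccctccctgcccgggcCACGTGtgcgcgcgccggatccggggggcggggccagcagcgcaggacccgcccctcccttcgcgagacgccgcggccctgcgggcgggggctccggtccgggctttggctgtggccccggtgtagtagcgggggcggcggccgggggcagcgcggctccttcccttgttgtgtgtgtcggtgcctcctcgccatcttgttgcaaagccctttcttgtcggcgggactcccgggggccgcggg
MLX, chr17:42566850-42567149, plus strand: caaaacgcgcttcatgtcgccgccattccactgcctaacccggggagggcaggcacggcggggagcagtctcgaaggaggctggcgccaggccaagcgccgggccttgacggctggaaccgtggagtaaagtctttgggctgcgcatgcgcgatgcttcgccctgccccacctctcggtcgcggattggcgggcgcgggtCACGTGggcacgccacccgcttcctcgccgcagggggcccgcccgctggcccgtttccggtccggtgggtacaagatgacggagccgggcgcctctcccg
The E-box, CACGTG and identical on both strands, was found in 3 of the 14 member promoters and in 8.32% of 22078 protein-coding promoters of this length. Counted from the start site, it began at base -238 of MXD4, -193 of MNT and -50 of MLX. A match is only a description of the letters. The MXD4 and MLX promoters were covered over all 300 bases in all 6 samples, and the MNT promoter over all 300 bases in the 3 shT2 samples and over 0, 0 and 165 bases in shNC3 replicates 1 to 3. Of the 14 promoters, 4 were touched by a peak in all 6 samples, against 18.3% of all promoters, and 4 in none, against 59.1%. The MYCL promoter holds 74.7% G and C, that of MLX 71.0% and the first MXI1 promoter, covered over all 300 bases in every sample, 55.0%.

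Of the 10 genes, 9 passed the filter of coverage in at least 3 samples, and MYCN did not. MYCL passed through the shT2 samples alone, so it had to differ and is described by its levels. Of the 8 genes with peaks in both groups, MYC, MAX and MGA had longer coverage in shT2, MXD3 and MLX had shorter coverage, and MXI1, MXD4 and MNT were not called. The 3 higher calls compare with 22.8% of the 11060 tested genes covered in both groups, and the 2 lower calls with 25.5%. With MYCL the filter passed 9 genes, 4 of them called higher and 2 lower, beside 24.2% higher, 27.2% lower and 51.3% called in either direction of all 11771 genes tested. The median log2 difference was -0.02 over the 8 genes and -0.07 over all tested genes covered in both groups. The scaled values of the 3 shT2 and 3 shNC3 samples did not overlap in 6 of the 8 genes, against 62.8% of the genes covered in both groups and 65.0% of all tested genes. Other settings gave other backgrounds: 27.0% higher and 17.4% lower without scaling, 22.8% and 25.5% with equal numbers of peaks, 14.9% and 25.1% over the gene ends alone, 22.5% and 25.4% at equal depth, and 24.0% and 24.3% with replicate number as a block. Of the 9 genes, MYCL included, 4 were higher in each of these except over the gene ends, with 2, and 2 were lower at equal depth and with the block and 1 in the other settings.

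**Figure D1:**
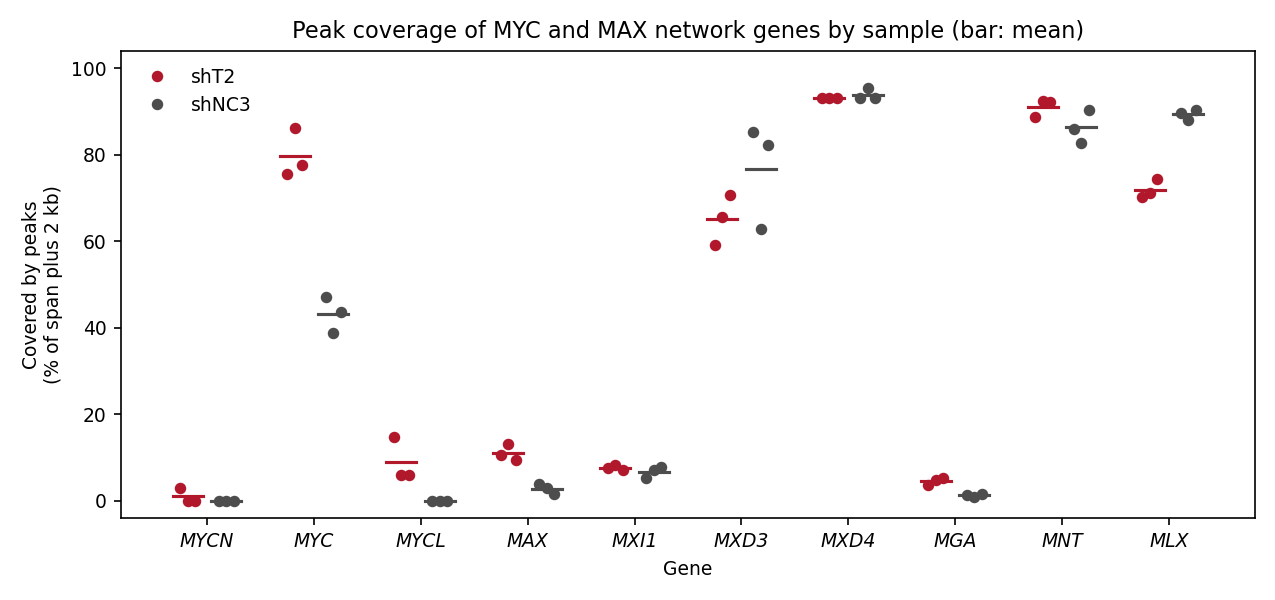
Percent of each gene window (span plus 2 kb per side) that lay under called peaks, 1 point per sample and a bar at the mean of 3, with shT2 left of shNC3. MYC stands at 75.6 to 86.1% in shT2 and 38.7 to 47.0% in shNC3, MXD4 at 93.1% in shT2 and 93.0 to 95.5% in shNC3 and MYCN is at or near 0.

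**Figure D2:**
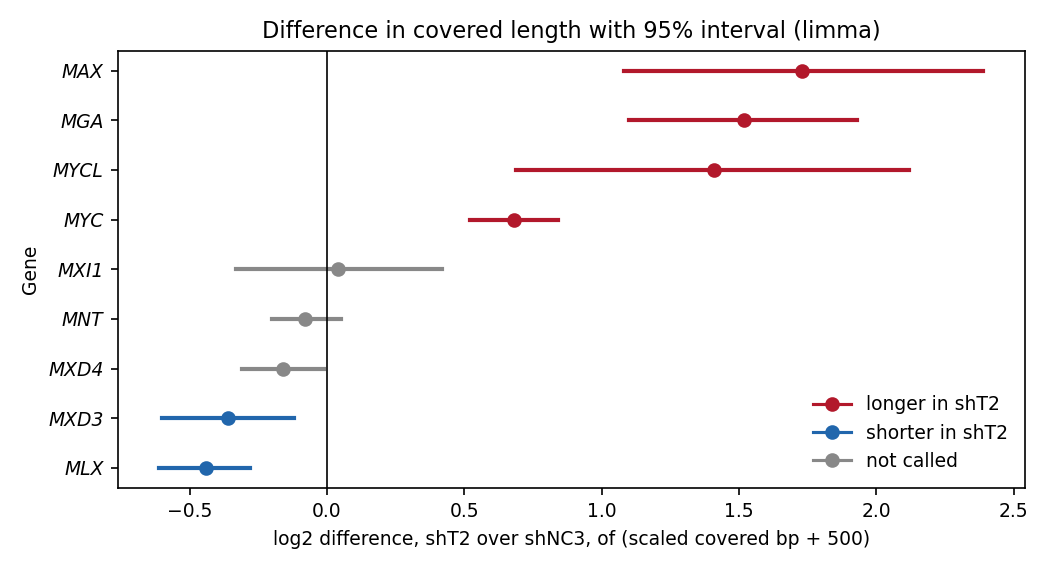
Log2 difference of shT2 over shNC3 in scaled covered length, with an offset of 500 bp, and its 95% interval from limma for the 9 tested genes. MAX, MGA, MYCL and MYC lie above 0 and MLX and MXD3 below; the MYCL value depends on the offset, since shNC3 had no peak there, and is no measured fold.

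The 3 MYC family genes differed widely in how much of their windows lay under peaks. MYC (chromosome 8, 127735434 to 127742951) had 8705, 9919 and 8937 bp under peaks in replicates 1 to 3 of shT2, against 5411, 4460 and 5029 bp in those of shNC3. Every shT2 sample was above every shNC3 sample. Scaled to total covered length, MYC averaged 8.71 ± 0.302 kb (SD, n = 3) in the shT2 samples, against 5.24 ± 0.206 kb (SD, n = 3) in the shNC3 samples. By limma the log2 difference was 0.68 (SE 0.07), with an adjusted p of 0.000221.

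The difference at MYC lay toward one end of the gene. In the 4 kb around its higher-coordinate end, peaks covered 2767, 3086 and 3076 bp in shT2 and 0, 0 and 0 bp in shNC3. The middle of the gene was alike, with 3191, 3518 and 2890 bp in shT2 and 2890 bp in each shNC3 sample, of 3518 bp. Around the lower-coordinate end, the covered length was 2747, 3315 and 2971 bp in shT2 and 2521, 1570 and 2139 bp in shNC3. The window of the lncRNA gene CASC11 shares 2534 bp with that of MYC, of which 2175, 2223 and 2096 bp were covered in shT2 and 1756, 1105 and 712 bp in shNC3. The strongest MYC peak, by the authors' fold enrichment in its own list, was 15.6, 10.4 and 18.8 in shT2 and 14.2, 18.9 and 13.9 in shNC3. Over the 6 samples, the coverage profile of MYC was closest to those of DCAF8 and ESAM, at a Euclidean distance of 0.122 and 0.14 in log2 covered length. DCAF8 itself was covered over 9207, 10058 and 9298 bp in shT2 and 5179, 4363 and 4875 bp in shNC3.

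MYCL (chromosome 1, 39895428 to 39901917, minus strand) had peaks in shT2 samples and in no shNC3 sample. It had 1539, 612 and 630 bp under peaks in replicates 1 to 3 of shT2, against 0, 0 and 0 bp in shNC3. A fold has no meaning against a group with no peak, and the test on a gene that entered it through shT2 alone is not used as support. The peaks were short and weak, with a highest fold enrichment of 7.05, 4.15 and 4.16. One stretch, at -0.88 to -0.57 kb from the start whose promoter is printed above (chromosome 1, 39902487 to 39902799), held peaks of 304, 313 and 301 bp in shT2 replicates 1 to 3. A second, 0.98 to 2.01 kb into the gene, merged peaks of 959, 299 and 329 bp, of which those of replicates 2 and 3 did not overlap each other. The lncRNA gene MYCL-AS1 has a window that shares 7671 bp with that of MYCL. Of that shared part, 1235, 299 and 329 bp were covered in shT2 and 0, 0 and 0 bp in shNC3. At a fold enrichment of at least 5, MYCL was covered in too few samples to be tested. The profiles most like that of MYCL were those of CEP295 and ST8SIA3, at distances of 0.422 and 0.432, both also without a peak in shNC3.

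MYCN (chromosome 2, 15940550 to 15947004) held almost none. It had 313, 0 and 0 bp under peaks in shT2, against 0, 0 and 0 bp in shNC3. The single peak, of 3.18-fold enrichment, lay upstream of the start, in a part shared with the antisense lncRNA gene MYCNOS. A gene without a called peak may still hold R-loops below the level of calling.

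MAX, the obligate partner of all 3, and MGA were the longest genes of the set, and both gained coverage within their bodies, while MXI1, the next in length, was not called. MAX (chromosome 14, 65006101 to 65102695, minus strand) had 10581, 13044 and 9489 bp under peaks in shT2, against 3926, 2990 and 1466 bp in shNC3. The groups were far apart, although even in shT2 peaks took up only 9.43 to 13.0% of the window, against 1.46 to 3.90% in shNC3. The scaled means were 10.4 ± 1.3 kb (SD, n = 3) in the shT2 samples, against 2.95 ± 1.27 kb (SD, n = 3) in the shNC3 samples. By limma the log2 difference was 1.73 (SE 0.28), with an adjusted p of 0.00195.

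The MAX signal was a string of weak peaks, 10, 11 and 13 of them in shT2 and 6, 6 and 4 in shNC3, none above 6.84-fold. Most lay between 14.02 and 41.5 kb into the gene. Between those points a peak that began 14.02 kb from the start reached 17.53 kb in shT2 replicates 1 and 2 and ended at 14.37 and 14.35 kb in shNC3 replicates 1 and 2. Around the MAX start the order was not the same, with 0, 421 and 313 bp in shT2 and 953, 549 and 286 bp in shNC3. When only the gene ends were scored, the log2 difference was -0.63 and not called (adjusted p = 0.163). At equal depth it was 1.55 (adjusted p = 0.00734).

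Part of MAX runs through another gene. FNTB, which encodes a farnesyltransferase subunit, overlaps the far part of MAX, a division chosen after the values were seen. There, peaks covered 766, 1749 and 942 bp in shT2 and 0 bp in each shNC3 sample. FNTB was itself longer in shT2 (log2 difference 1.65, SE 0.43, limma adjusted p = 0.0149), while the readthrough gene CHURC1-FNTB, which spans it, was shorter (-0.52, SE 0.18, adjusted p = 0.0461). In the rest of the MAX window, outside FNTB, coverage was 9815, 11295 and 8547 bp in shT2 and 3926, 2990 and 1466 bp in shNC3. The lncRNA gene MAX-AS1 has a window that shares 8394 bp with that of MAX. Of that shared part, 759 bp were covered in each shT2 sample and 352, 334 and 0 bp in shNC3.

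MGA (chromosome 15, 41621224 to 41769940, plus strand) had 5455, 7201 and 7914 bp under peaks in shT2, against 1939, 1366 and 2251 bp in shNC3. All 3 shT2 samples were above all shNC3 samples. The scaled means were 6.51 ± 1.23 kb (SD, n = 3) in the shT2 samples, against 1.95 ± 0.403 kb (SD, n = 3) in the shNC3 samples. By limma the log2 difference was 1.52 (SE 0.18), with an adjusted p of 0.00047.

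The MGA difference was concentrated in its last 10 kb, a stretch chosen after the values were seen. There, coverage was 5093, 5708 and 5815 bp in shT2 and 1064, 1366 and 1439 bp in shNC3, while the rest of the window held 362, 1493 and 2099 bp in shT2 and 875, 0 and 812 bp in shNC3. In shT2 the widest peaks ran from 143.81 to 147.88 kb, from 142.45 to 147.72 kb and from 142.45 to 147.89 kb after the start, the annotated end being at 148.7 kb. They were also the strongest of the gene, with a fold enrichment of 13.9, 12.3 and 13.0. In shNC3 the same stretch held separate peaks of 326 to 740 bp, none above 5.47-fold. Scored over the gene ends alone MGA was not called (0.67, adjusted p = 0.077); most of this peak lies more than 2 kb inside the end.

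The promoter windows of MGA and MAX were nearly bare. Of the 3 MGA promoters, 2 were touched in 1 sample, shT2 replicate 3 each time, over 150 and 211 bases, and 1 in none. Of the 2 MAX promoters, 1 was touched over 38 bases in shNC3 replicate 1 and the other in no sample. Both belong to start sites inside the MAX span. The end of the span, from which MAX distances are counted, lay under a peak of shNC3 replicate 1, from -0.75 to 0.2 kb.

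**Figure D3:**
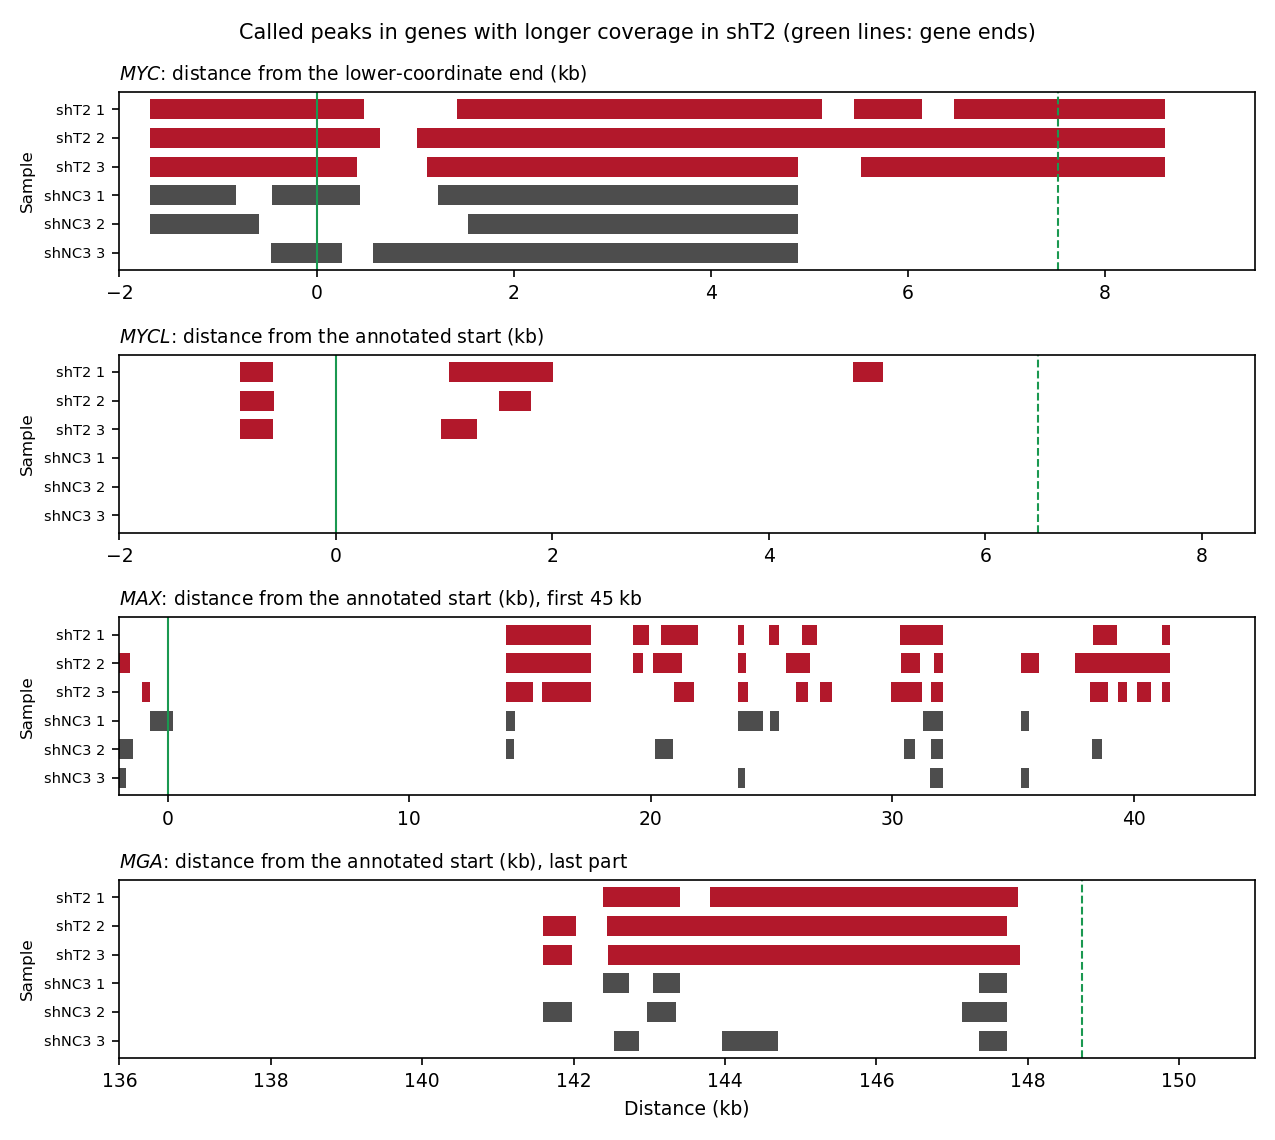
Called peaks as bars, 1 row per sample with shT2 above shNC3, along MYC, MYCL, the first 45 kb of MAX and the last part of MGA, in kb from the annotated start (for MYC, from the lower-coordinate end), cut at the window edges. The shT2 rows alone reach past the far end of MYC, and the shT2 rows of MGA hold peaks of 4070 to 5440 bp where shNC3 has short ones.

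Among the repressors, MXD3, MXD4 and MNT lay mostly under peaks with either hairpin, and MXI1 did not. MXD3 (chromosome 5, 177305499 to 177312752, minus strand) had 6664, 7372 and 7945 bp under peaks in shT2, against 9580, 7079 and 9236 bp in shNC3. As deposited, shNC3 replicate 2 lay among the shT2 samples. After scaling the groups no longer overlapped, at 6.96 ± 0.703 kb (SD, n = 3) in the shT2 samples, against 9.09 ± 0.952 kb (SD, n = 3) in the shNC3 samples. By limma the log2 difference was -0.36 (SE 0.10), with an adjusted p of 0.0207.

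This MXD3 call was the least stable of the 6. It was lost without scaling (-0.21, adjusted p = 0.239), with equal numbers of peaks (-0.29, 0.0568), over the gene ends (-0.19, 0.211) and when shT2 replicate 1 or 2 or shNC3 replicate 1 or 3 was left out (adjusted p = 0.0594 to 0.0642). The promoter of MXD3 was covered over 300 bases in each shT2 sample and over 240, 208 and 0 bases in shNC3 replicates 1 to 3. The body of MXD3, away from both ends, held 1453 bp in every shT2 sample and 2481, 2301 and 2650 bp in shNC3. A stretch 2.14 to 2.67 kb into the gene (chromosome 5, 177310081 to 177310613) had 0, 0 and 0 bp under peaks in shT2, against 533, 403 and 371 bp in shNC3. It was the single such region among 40 merged regions that touched the 10 windows. MXD3 shares peaks with PRELID1 (log2 difference -0.11, limma adjusted p = 0.253), a gene of mitochondrial lipid transport, and with RAB24 (0.28, limma adjusted p = 0.0147).

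MXD4 (chromosome 4, 2247432 to 2262109, minus strand) lay almost whole under 1 peak, split into 2 in shNC3 replicate 3. It was covered over 17392 bp in each shT2 sample and over 17392, 17834 and 17371 bp in shNC3, or 93.1% of the window in shT2 and 93.0 to 95.5% in shNC3. Its scaled difference of -0.16 (95% interval -0.31 to -0.01, limma adjusted p = 0.0656) became -0.01 without scaling (adjusted p = 0.774). MXD4 is 1 of the 6 genes whose scaled values did not overlap, while its unscaled values did.

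MNT (chromosome 17, 2384073 to 2401060, minus strand) had 18602, 19364 and 19335 bp under peaks in shT2, against 18000, 17357 and 18974 bp in shNC3. The scaled difference was -0.08 (95% interval -0.20 to 0.05, limma adjusted p = 0.253). It turned to 0.08 without scaling and 0.11 over the gene ends, neither called. The 4 kb around its start were covered over 2390, 3152 and 3123 bp in shT2 and over 1788, 1145 and 2325 bp in shNC3, values that overlapped once scaled, and the E-box promoter printed above lay fully under a peak in shT2 alone.

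MXI1 (chromosome 10, 110207605 to 110287365, plus strand) had 6213, 6790 and 5911 bp under peaks in shT2, against 4275, 5884 and 6446 bp in shNC3, with overlapping groups. The log2 difference was 0.04 (95% interval -0.33 to 0.42, limma adjusted p = 0.829). All of its peaks sat near annotated starts: from -0.74 to 4.24 kb around the first, which takes in the second start and had a gap in shT2 replicate 3 and shNC3 replicate 1, and from 16.96 to at most 18.77 kb, around the third, where shNC3 replicate 1 had none. The third promoter was touched over 51, 300 and 103 bases in shT2 and over 0, 164 and 284 bases in shNC3. The rest of its 79.8 kb held no peak in any sample.

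MLX (chromosome 17, 42567100 to 42573203, plus strand) had 7080, 7197 and 7520 bp under peaks in shT2, against 9046, 8896 and 9126 bp in shNC3. The groups were well apart, and unlike that of MXD3 the call did not depend on scaling, although the difference was smaller without it. The scaled means were 6.90 ± 0.41 kb (SD, n = 3) in the shT2 samples, against 9.56 ± 0.469 kb (SD, n = 3) in the shNC3 samples. By limma the log2 difference was -0.44 (SE 0.07), with an adjusted p of 0.00188, and -0.29 without scaling (adjusted p = 0.00347).

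The MLX coverage was broken up in shT2 and more continuous in shNC3. Its window held 7, 5 and 5 peaks in shT2 and 3, 4 and 3 in shNC3. Around the start, 2610, 3260 and 3171 bp of 4 kb were covered in shT2 and 4000, 3712 and 4000 bp in shNC3. At a fold enrichment of at least 5 the difference was -1.27 (adjusted p = 0.000886). Closely spaced neighbours share these peaks: COASY, an enzyme gene of coenzyme A synthesis, was shorter in shT2 (-0.40, SE 0.08, limma adjusted p = 0.00461), as was PSMC3IP, a recombination gene (-0.30, SE 0.09, adjusted p = 0.0241), so the 3 genes are not independent.

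**Figure D4:**
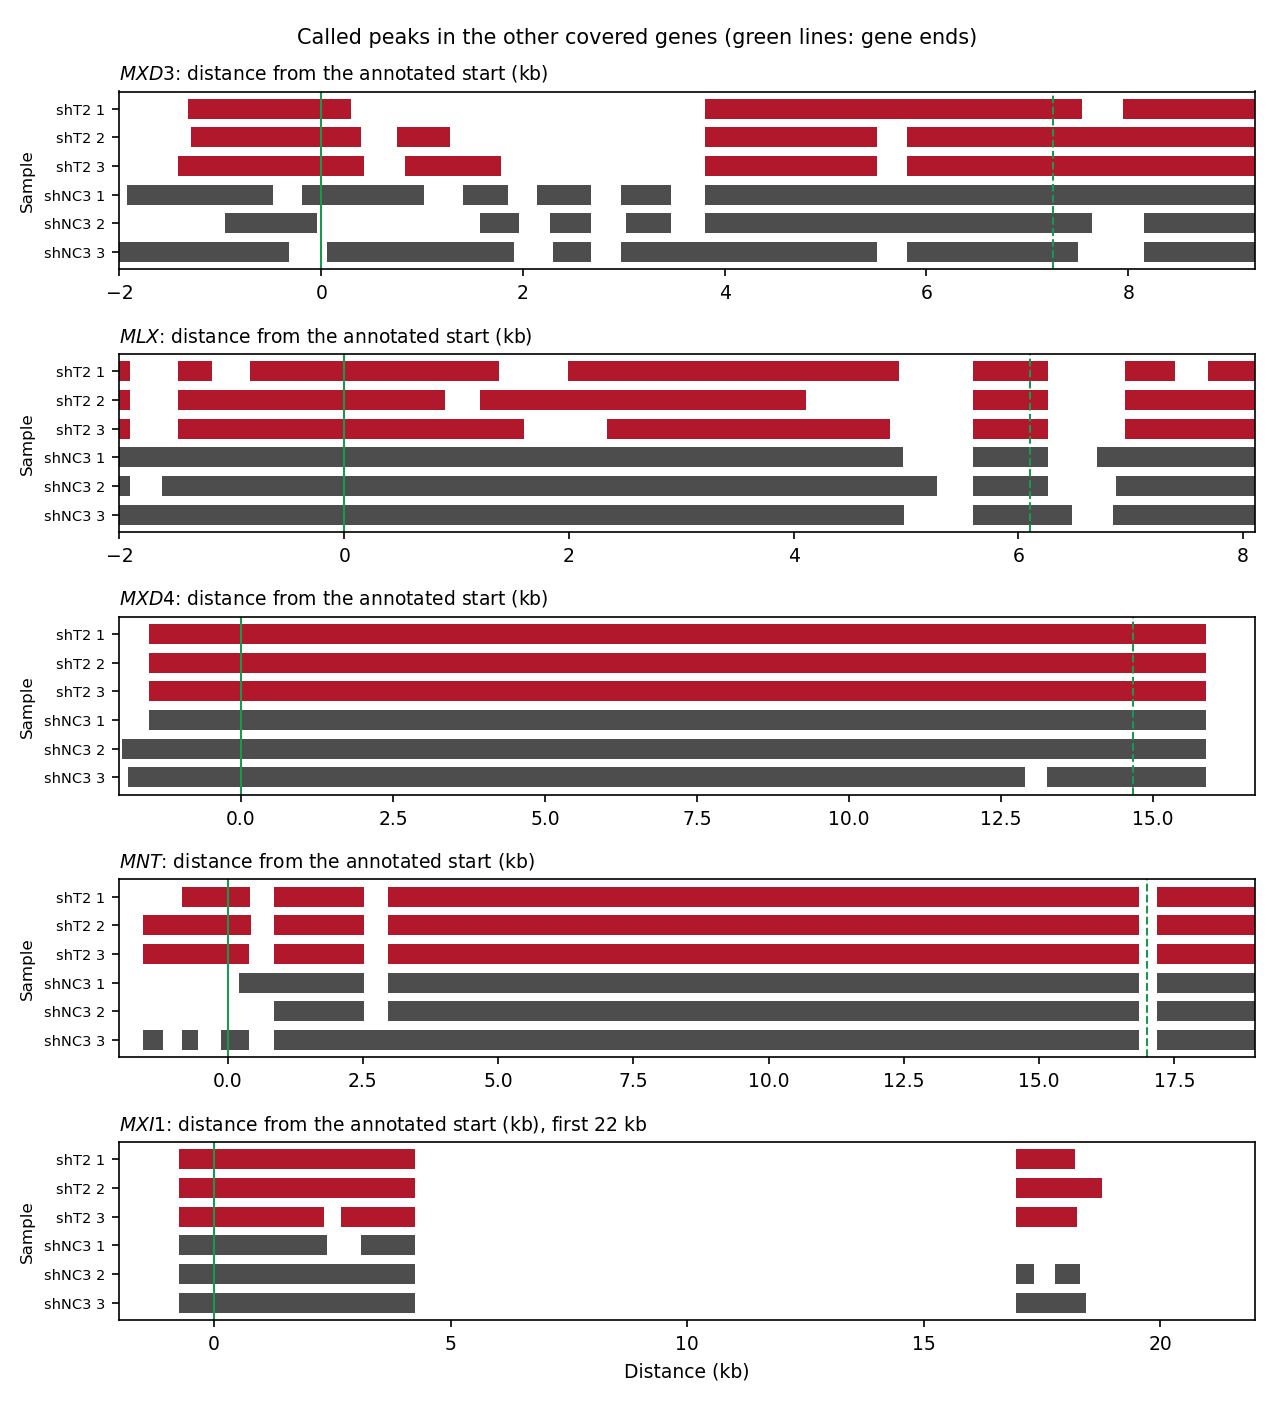
Called peaks as bars, 1 row per sample with shT2 above shNC3, along MXD3, MLX, MXD4, MNT and the first 22 kb of MXI1, in kb from the annotated start, cut at the window edges. MXD4 is covered nearly end to end in all 6 samples, and the body of MXD3 and the start of MLX are covered further in shNC3.

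The 10 windows together held 38, 37 and 42 peaks in shT2 and 29, 28 and 28 in shNC3, a difference of 10.7 (39.0 ± 2.65 in shT2 and 28.3 ± 0.577 in shNC3, SD, n = 3 each, two-sided exact permutation p = 0.1, the smallest that 3 against 3 allows). With peaks of at least 5-fold enrichment the numbers were 25, 20 and 20 in shT2 and 17, 19 and 17 in shNC3. None of these numbers is scaled to list size or depth, and no such number was taken over all genes. More peaks need not mean longer coverage: MLX, shorter in shT2, had 7, 5 and 5 peaks there and 3, 4 and 3 in shNC3. MAX gave 10, 11 and 13 of the peaks in shT2 and 6, 6 and 4 in shNC3. Of the 40 merged regions, 12 had a peak in all 6 samples and 3 in all shT2 samples and no shNC3 sample: both MYCL stretches named above and one 25.59 to 26.86 kb into MAX. Among the 66584 merged regions in the windows of all protein-coding genes, 21.8% had a peak in all 6 samples, 5.71% in all shT2 samples and no shNC3 sample, and 2.71% in no shT2 sample and all shNC3 samples.

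Many peaks of these genes began or ended on the same base in several samples. Of 259 distinct peak edges in the 10 windows, 32 were shared by 3 or more samples and 7 by all 6, among them the far end of MXD4 and both ends of the MXI1 stretch over its first start. The nucleic acids had been cut with BsrGI, EcoRI, HindIII, SspI and XbaI before the pulldown. Inside the promoter windows of all protein-coding genes, where the sequence could be read, 461 of 463 edges shared by 3 or more samples (99.6%) lay in a recognition site of 1 of these enzymes, against 235 of 7827 edges (3.0%) seen in 1 sample. The shared edges of the 10 genes lay outside their promoter windows, so their own sites were not read.

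Other genes of the pathway went both ways. Apart from TXNIP, all those tested had peaks in both groups. Among the 11060 tested genes covered in both groups, 22.8% were higher and 25.5% lower. Among all tested genes, these shares were 24.2% and 27.2%. The other network genes were not called: MLXIP differed by 0.11 (limma adjusted p = 0.198) and MXD1 by 0.13 (adjusted p = 0.475), and MLXIPL was not tested. Of the corepressors that MXD proteins and MNT recruit, 4 of 8 tested were higher in shT2, 1 lower and 3 not called, with a median of 0.33. The deacetylase gene HDAC2 was covered over 5.56 ± 0.515 kb in shT2, against 2.08 ± 0.273 kb in shNC3 (SD, n = 3 each; log2 difference 1.23, limma adjusted p = 0.000271). The scaffold gene SIN3A (0.53, adjusted p = 0.000315) and the corepressor gene NCOR1 (1.41, 0.000838) were also longer in shT2.

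Of the MGA partners in Polycomb complex PRC1.6, 2 of 10 were higher, 2 lower and 6 not called. TFDP1, the dimer partner of E2F factors, was covered over 4.07 ± 0.496 kb in shT2, against 12.2 ± 1.01 kb in shNC3 (SD, n = 3 each; -1.48, limma adjusted p = 5.73e-05). The ubiquitin ligase gene RING1 was also shorter (-0.26, adjusted p = 0.0301), and the heterochromatin protein gene CBX3 (0.55, 0.0299) and RYBP (0.54, 0.0479) were longer in shT2. Of the MYC cofactors, 4 of 15 were higher, 4 lower and 7 not called. The chromatin remodeller gene EP400 (0.77, adjusted p = 0.000253) and the scaffold gene TRRAP (0.48, 0.000356) were longer and WDR5 shorter (-0.36, 0.00635).

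Of the genes that control turnover of MYC proteins, 3 of 10 tested were higher, 1 lower and 6 not called. The kinase gene CSNK2A1 (1.20, limma adjusted p = 0.000177) and the ubiquitin pathway genes HUWE1 (0.58, 0.00324) and USP7 (0.73, 0.00805) were longer in shT2 and the mitotic kinase gene PLK1 shorter (-0.82, 0.00487). Of 31 tested MYC target genes, 8 were higher, 6 lower and 17 not called, with a median of -0.09. The nucleolar genes GNL3 (7.44 ± 0.182 kb in shT2, against 2.18 ± 0.115 kb in shNC3, SD, n = 3 each, limma adjusted p = 2.64e-05) and NPM1 (0.55, adjusted p = 0.00049) and the chaperonin gene HSPD1 (0.78, 0.000354) were longer, and the nucleolar methyltransferase gene FBL was shorter (-0.90, 0.000468). CCND2 had no peak in any sample. Of the targets of MLX dimers, TXNIP, the thioredoxin inhibitor induced by glucose, had 2855, 1830 and 2346 bp under peaks in shT2, against 0, 0 and 0 bp in shNC3, so it too entered the test through shT2 alone. ARRDC4, its relative, had 286, 674 and 893 bp under peaks in shT2, against 0, 0 and 388 bp in shNC3 and was not called (adjusted p = 0.0951).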

How the data were processed

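DRIP-seq peaks of 6 SH-SY5Y samples, 3 per hairpin, were used, grouped by sample title. Per the submitters' processing notes, the tools were MACS2 2.2.6, Bowtie2 2.4.4 and SAMtools, and the build hg38. Each sample has its own peak list; the sources used here do not give the control that entered the calling. The deposited lists give, per the peak caller, an integer score, the fold enrichment at the summit (a ratio), the −log10 p-value and −log10 q-value, and the summit position. Library depth was recovered from the deposited fold and p pairs of peaks under 10-fold. It limits which weak peaks could be called.

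Covered length per protein-coding gene (RefSeq, span plus 2 kb) was multiplied so that every sample had an equal total, the mean over samples. In R 4.3.3, limma 3.58.1 was run on log2(bp + 500) (trend, robust, no covariates) over 11771 genes covered in at least 3 samples, with Benjamini-Hochberg adjustment over all of them and a threshold of 0.05. The offset understates changes of briefly covered genes. Named genes are the 10 members, up to 4 per list with the smallest p (some are not reported here), neighbours that share peaks, and the 2 profiles closest to MYC and MYCL. Members and lists were chosen with earlier results of these data known. Alternatives were other scalings, offsets, peak cut-offs, windows and filters, each sample left out and a replicate block. No genome sequence was used, so peak sequences are not shown.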

Additional observations from a re-analysis of the deposited data

How the results depend on the processing

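MYC and MLX kept their direction and call under all 20 alternatives, with log2 differences of 0.48 to 1.21 and -1.27 to -0.29. MYCL passed the filter through shT2 alone, so its stability cannot be read from these fits; it could not be tested with any shT2 sample left out, at 5-fold enrichment or with coverage required in all 6 samples. MGA lost its call over the gene ends alone (0.67, adjusted p = 0.077), where MAX (-0.63), MXI1 (-0.13) and MNT (0.11) changed sign without a call; MNT also did so without scaling (0.08), and MXI1 without shNC3 replicate 1, its differences with 1 sample left out being -0.15 to 0.14. MXD4 was called at a −log10 q of at least 5 (-0.21, adjusted p = 0.0294) and without shNC3 replicate 1 (-0.20, adjusted p = 0.0431), and MNT in its span with no flank (-0.16, adjusted p = 0.0384). Members called higher, MYCL included, numbered 2 over the gene ends, and those called lower 1 there, without scaling and with equal numbers of peaks; leaving out 1 sample gave 3 to 4 higher and 1 to 2 lower. The cause was not tested. Over all genes, 2843 were called higher and 3199 lower, and 1846 and 1955 at 5-fold enrichment, 1572 and 2660 over the gene ends, and 3180 and 2044 without scaling. Of the calls, 47.1% were higher, 60.9% without scaling and 37.1% over the gene ends; the median log2 difference of all genes was -0.08, and 0.06 without scaling. Leaving out 1 sample gave 2095 to 2746 higher and 2348 to 2717 lower. Of the member regions, 3 had peaks in all shT2 samples alone and 1 in all shNC3 samples alone, against 2 and 2 at 5-fold enrichment and 4 and 1 when peaks had to cover a set larger share of the region. The difference in peak number was 9.17 to 11.7 with 1 sample left out. Samples with the same number did not deviate together (r = -0.064 to -0.008, against -0.033 to 0.056 for the other pairs). With 3 samples per group, these values cannot show whether same-numbered samples were handled together. With a replicate block, 4 members were called higher and 2 lower, and 2825 and 2866 of all genes. At equal depth, an alternative chosen after seeing the data, 4 members were higher and 2 lower (2599 and 2934 of all genes); it drops peaks whose summit no longer passes and does not shorten the others.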
